A study of Mus musculus with 20 samples.

Results

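Messenger RNAs of the mitochondrial genome were followed in microglia, the resident macrophages of the brain. The 10 transcripts chosen were mt-Nd1, mt-Nd2, mt-Nd4, mt-Nd5, mt-Nd6, mt-Cytb, mt-Co1, mt-Co2, mt-Co3 and mt-Atp6. They are a named list of 10 among the 13 protein-coding genes and the 37 annotated genes of that genome, picked out of 54838 genes by symbol. At postnatal day 40, 1000 cells were taken from the frontal cortex of each mouse in a cell sorter, gated as CD11b high and CD45 low. Their RNA was copied by template switching, amplified and made into 20 libraries, 1 per mouse. Genotype labels were hC4A/A (n = 2), hC4A/- (n = 5), hC4B/- (n = 4), C4-/- (n = 5) and WT (n = 4), where WT stands for wild type and hC4A and hC4B for human C4 genes in a humanized transgenic line. C4 is a complement protein of the classical pathway. Neither strain, sex, the deleted stretch of C4 nor the promoter of the human genes is given by the labels, and the labels with human C4 do not state the mouse C4 alleles.

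The mitochondrial genome of mammals is a small circle read from both strands as long precursor RNAs. The transfer RNAs that lie between most of its genes are cut out, which frees the messenger and ribosomal RNAs. Its proteins are core membrane subunits of the respiratory chain and of ATP synthase, and nuclear genes supply the other subunits. Pieces of mitochondrial DNA have also been copied into nuclear chromosomes in the course of evolution, and reads from such a stretch can match both places.

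A library held 855099 to 2735181 counts over genes. All 12 microglia markers were detected, at 4827 to 13067 CPM in sum (counts scaled to a fixed library total). Mouse C4b went against the labels: it held 0 to 2 counts in the libraries labelled WT, 7 to 157 in those labelled C4-/-, and 4 to 428 over the 16 libraries of the genotypes other than WT, so genotype names below are labels. All WT libraries were deposited under another style of library name than the rest, so a difference from WT in genotype and one in handling cannot be told apart. In 4 libraries, hC4A/A replicate 2, hC4B/- replicates 2 and 3 and C4-/- replicate 3, between 27178 and 30907 genes were detected, against 11348 to 23912 in the other 16. They are called the broad libraries below, and results that rest on them are given with and without them. A group of 14 satellite-like genes took 49.9% to 81.0% of gene counts in the broad libraries, against 13.3% to 58.8% elsewhere. In bulk libraries, fewer cells of a type and less RNA per cell cannot be told apart.

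On GRCm38, mt-Nd1 lies at chrM 2751 to 3707, mt-Nd2 at 3914 to 4951, mt-Co1 at 5328 to 6872 and mt-Co2 at 7013 to 7696. They are followed by mt-Atp6 at 7927 to 8607, mt-Co3 at 8607 to 9390, mt-Nd4 at 10167 to 11544, mt-Nd5 at 11742 to 13565, mt-Nd6 at 13552 to 14070 and mt-Cytb at 14145 to 15288. Each is annotated as a protein-coding gene, on the plus strand except mt-Nd6.

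A stretch of nuclear chromosome 1 carried near-perfect copies of much of the list, and 3 of the 10 messenger RNAs were almost uncounted. In GENCODE M21 annotation of GRCm38, 7 pseudogenes between positions 24611535 and 24616197 of chromosome 1, all on the minus strand, matched mitochondrial genes in their order. The match to mt-Co2 (Gm28661) was 100% over 681 bases, that to mt-Atp6 (Gm10925) 100% over 678 bases, and that to mt-Co3 (Gm28437) 100% over 783 bases. For mt-Nd4 (Gm28439) the first 876 bases matched at 100%, and for mt-Co1 (Gm29216) its last 483 bases matched at 99.8%. The sequences below are shown because they contrast a gene with a perfect nuclear copy with a gene without a matching window. Each is 100 bases long, 5′ to 3′ in the sense of the messenger RNA, from GENCODE M21 transcripts. They lie at chrM:7457-7556 (plus strand) for mt-Co2, chr1:24615022-24615121 (minus) for Gm28661, chr2:22587431-22587530 (minus) for Gm13341, chrM:14441-14540 (plus) for mt-Cytb and chr4:80004285-80004384 (plus) for Gm11410. Capitals mark the bases at which mt-Co2 and Gm13341, or mt-Cytb and Gm11410, differ.
mt-Co2: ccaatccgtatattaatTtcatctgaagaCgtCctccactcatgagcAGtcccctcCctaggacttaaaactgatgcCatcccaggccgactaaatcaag
Gm28661: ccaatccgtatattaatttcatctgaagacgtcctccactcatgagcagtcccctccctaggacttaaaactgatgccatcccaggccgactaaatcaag
Gm13341: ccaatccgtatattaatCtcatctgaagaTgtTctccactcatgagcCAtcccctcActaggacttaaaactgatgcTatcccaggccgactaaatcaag
mt-Cytb: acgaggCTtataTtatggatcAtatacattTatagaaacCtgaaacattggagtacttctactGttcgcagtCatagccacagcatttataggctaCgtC
Gm11410: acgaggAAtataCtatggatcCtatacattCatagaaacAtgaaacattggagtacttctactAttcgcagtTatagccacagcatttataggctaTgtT
Gm28661 had 0 differences from mt-Co2 in these 100 bases. Gm13341, a second copy on chromosome 2, had 7, among them T18C and C30T, counted from 1 at the left end with the mitochondrial base first. Gm11410, the closest annotated copy of mt-Cytb, had 10, among them C7A and T8A. The stretches were picked as the ungapped 100 bases with the most differences from Gm13341 or Gm11410, so they are not typical. Over its whole alignment Gm13341 had 16 mismatches in 684 bases, and Gm11410 had 81 in 1142.

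Exact sharing was then measured over every 50-base window of each transcript. All 635 windows of mt-Co2 (100%) occurred in an annotated transcript outside the mitochondrial genome, as did 99.9% of those of mt-Co3 and 99.5% of those of mt-Atp6. The share was 62.2% for mt-Nd4, 51.1% for mt-Co1, 8.19% for mt-Nd2 and 7.61% for mt-Nd5. No window was shared for mt-Nd1, mt-Nd6 or mt-Cytb. With 100-base windows, chosen after seeing the data, the shares of mt-Nd4, mt-Co1, mt-Nd2 and mt-Nd5 were 60.8%, 30.8%, 3.19% and 0%. Only annotated transcripts were searched, so copies outside annotation are not in these shares. Reads that align to several places are tallied apart in the deposited files, at 13.2% to 28.9% of all reads, and belong to no gene there.

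**Figure D1:**
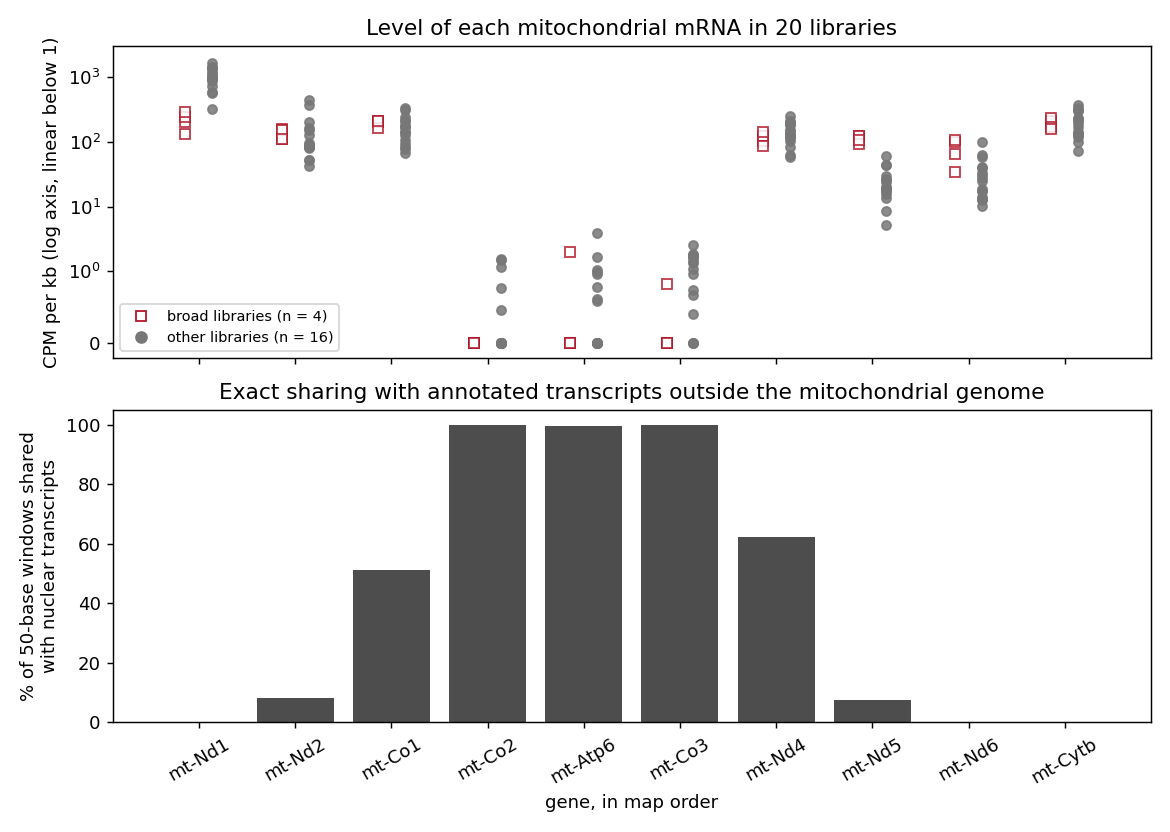
Upper panel: CPM per kb of annotated length of each mitochondrial mRNA (log axis, linear below 1) in each library, with open squares for the 4 broad libraries and filled circles for the other 16. Lower panel: the percentage of 50-base windows shared exactly with annotated nuclear transcripts. Genes run in map order, and mt-Co2, mt-Atp6 and mt-Co3, shared over 99.5% to 100% of windows, sit below 4 CPM per kb in every library.

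Summed over the 20 libraries, mt-Co2 held 9 counts, mt-Atp6 16 and mt-Co3 29. Each of these encodes a core subunit: mt-Co2 and mt-Co3 of cytochrome c oxidase (complex IV), which passes electrons to oxygen, and mt-Atp6 of ATP synthase (complex V), where it forms part of the proton channel. The remaining 7 members held from 719 counts (mt-Nd6) to 33147 (mt-Nd1). mt-Co2 had 1 count in hC4A/A replicate 1, 1 in hC4A/- replicate 2, 3 in hC4A/- replicate 5, 2 in C4-/- replicate 4, 2 in WT replicate 4 and 0 in each of the 15 libraries left. The hC4B/- libraries together held 0 counts of mt-Co2 among 7024387, which allows up to 0.427 CPM, and the hC4A/A libraries 0 counts of mt-Atp6 among 3436729, which allows up to 0.873 CPM. mt-Co3 was detected in 14 libraries and mt-Atp6 in 9, with at most 6 and 4 counts in a library. No difference between genotypes was detectable at these counts for these 3. The 7 pseudogenes held 144 counts in all over the 20 libraries, each between 3 and 45, so uniquely assigned counts were low on both sides of the match. How far reads matching both places account for the low counts was not tested. Intervals and floors of this kind cover counting error only, since amplified reads were counted without molecular identifiers.

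The 3 further messenger RNAs of the same genome lay outside the list. mt-Nd3, with 98.0% of its windows shared, held 78 counts, and mt-Nd4l, with 98.8% shared, held 0. mt-Atp8, which overlaps the start of mt-Atp6, also held 0 counts, and none of its windows was shared with an annotated nuclear transcript. It starts between mt-Co2 and mt-Atp6. On chromosome 1 the copy of mt-Atp6 (Gm10925) ends at 24614651 and that of mt-Co2 (Gm28661) starts at 24614885. Only annotated transcripts were searched, so whether the stretch between them holds a copy of mt-Atp8 was not tested.

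Among the members that were counted, mt-Nd1 stood highest. It encodes a core membrane subunit of NADH dehydrogenase (complex I), the entry point of electrons from NADH, and gave 33147 of the 66288 counts of the list. Over the 20 libraries mt-Nd1 averaged 862 ± 463 CPM per kb (SD), which was above mt-Cytb in 18 libraries, among them all 16 that were not broad. mt-Cytb, the cytochrome b of complex III, averaged 196 ± 80.9 CPM per kb and was above mt-Co1 in 14 libraries, 11 of them not broad. mt-Co1, the catalytic subunit of complex IV, averaged 172 ± 71.9 CPM per kb. The complex I mRNAs mt-Nd2 and mt-Nd4 averaged 136 ± 100.3 and 135 ± 50.4 CPM per kb, with mt-Nd2 the higher in 9 libraries (all 4 broad libraries and 5 of the 16 others), and did not differ beyond their spread. The same held for mt-Nd5 and mt-Nd6, 2 further complex I subunits, at 41.8 ± 38.3 and 41.2 ± 30.8 CPM per kb, with mt-Nd5 the higher in 10 libraries, 7 of them not broad. Far below came mt-Co3, mt-Atp6 and mt-Co2, at 0.941, 0.626 and 0.272 CPM per kb. Per 1000 unshared windows, mt-Nd1 had 36506 counts, mt-Nd4 13703, mt-Co1 13257, mt-Cytb 7789, mt-Nd2 5497, mt-Nd6 1529.8 and mt-Nd5 1389. mt-Nd4 and mt-Co1 thus moved above mt-Cytb when only the unshared part of each transcript was used as its length. On this measure mt-Co3 had 29000 and mt-Atp6 5333, on 1 and 3 unshared windows, too few to give their levels. mt-Co2 had 0 unshared windows, so the low place of these 3 per kb does not show whether their mRNA was scarce.

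mt-Nd6 is the member read from the opposite strand, and it shares 14 bases with the end of mt-Nd5. Both stranded count columns split the members evenly, with 47.1% to 51.7% of counts in the first of them for each of the 7 counted members. The libraries therefore do not tell the strands apart, and antisense reads cannot be separated from those of the gene.

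The 10 mRNAs together took a small part of each library. Their summed share of gene counts ran from 0.0688% (95% Wilson interval 0.0642% to 0.0738%, in C4-/- replicate 2) to 0.303% (0.296% to 0.310%, in hC4A/A replicate 1). Median shares were 0.200% in hC4A/A, 0.146% in hC4A/-, 0.118% in hC4B/-, 0.232% in C4-/- and 0.240% in WT libraries. Without the satellite-like genes in the total, the medians were 0.347%, 0.245%, 0.285%, 0.326% and 0.357% in that order. On the CPM scale with TMM factors the sum averaged 1781 ± 1008 in hC4A/A (SD, n = 2), 1488 ± 455 in hC4A/- (n = 5), 1432 ± 100.1 in hC4B/- (n = 4), 1851 ± 821 in C4-/- (n = 5) and 2216 ± 187 in WT libraries (n = 4). The hC4B/- libraries spanned 1301 to 1539 CPM, all below the WT range of 2044 to 2394, while the hC4A/A libraries (1068 and 2494) lay on either side of it and hC4A/- (1127 to 2272) and C4-/- (727 to 2688) overlapped it. The separation of hC4B/- from WT was lost in the share without satellite-like genes, where hC4B/- spanned 0.225% to 0.442% and WT 0.252% to 0.415%. A sum over chosen members was not tested.

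**Figure D2:**
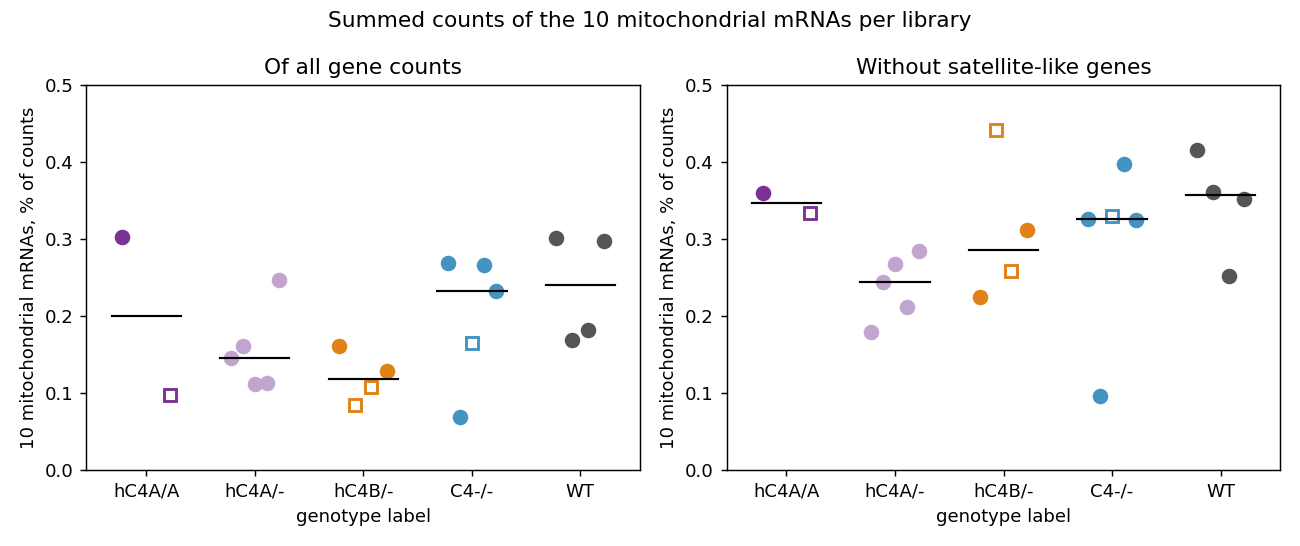
Summed counts of the 10 mitochondrial mRNAs as a percentage of all gene counts (left) and of gene counts without 14 satellite-like genes (right), for each library by genotype label. Open squares mark the broad libraries and bars the group medians; the lowest value in both panels is C4-/- replicate 2, at 0.0688% and 0.0958%.

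The make-up of the mitochondrial counts separated the broad libraries from the rest. mt-Nd1 made up 11.8% to 21% of the members' counts in the 4 broad libraries, against 38.3% to 74.5% in the other 16. mt-Nd5 went the other way, with 12.8% to 18.2% in the broad libraries, against 0.664% to 4.72% elsewhere. These ranges did not overlap, and both shares are independent of the library total. mt-Co1 held 19.3% to 30.01% against 7.71% to 20.2%, and mt-Cytb 14.95% to 19.2% against 6.39% to 19.8%, so both overlapped. Shares of 1 sum are tied, so a lower share of mt-Nd1 raises the others. In CPM, mt-Nd1 (126 to 273, against 308 to 1559.9) and mt-Nd5 (167 to 225, against 9.56 to 111) also separated. Medians in CPM were 218 and 210 for mt-Cytb and 314 and 238 for mt-Co1. The share of all genes that separate in this way was not computed. Per kb, the densest of the 7 counted members exceeded the sparsest 2.46 to 5.999 times there, against 15.5 to 176 times elsewhere.

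The ribosomal RNAs of the same genome also split by library. mt-Rnr1, the small-subunit rRNA, had 622 to 3088 counts in the broad libraries, against 118 to 1094 elsewhere, which overlapped. Its ratio to mt-Rnr2, the large-subunit rRNA, was 0.422 to 0.627 in the broad libraries, against 0.0919 to 0.350 elsewhere. mt-Nd1 counts were 0.0955 to 0.653 times those of mt-Rnr1 in the broad libraries, against 1.26 to 14.99 times elsewhere. The 22 transfer RNA genes together held 3 to 22 counts in a broad library and 0 to 6 in another. Markers of other brain cells did not move one way. The 6 astrocyte markers summed to 46.4 to 100.4 CPM in the broad libraries, against 161 to 737 CPM elsewhere, but most of that sum was Slc1a3, a glutamate transporter, with a median of 48.8 CPM in the broad libraries, against 398 CPM elsewhere. The other 5 astrocyte markers had higher medians in the broad libraries. The 6 oligodendrocyte markers summed to 36.3 to 75.1 CPM in the broad libraries, against 102 to 358 CPM elsewhere, and again 1 gene, Cnp, a myelin enzyme, had the lower median there (16.8 CPM, against 121 CPM elsewhere) while the other 5 had the higher. Summed neuron markers (11.7 to 50.1 CPM in the broad libraries, against 2.66 to 115 CPM elsewhere) and summed endothelial and mural markers (18.2 to 47.4 CPM, against 2.73 to 63.3 CPM) overlapped. Single medians were higher in the broad libraries for 6 of the 8 neuron markers and for all 6 endothelial and mural markers. Several medians of these 4 cell types lay near 3 counts, which is 1.67 to 3.51 CPM in a broad library. Broad libraries were defined by detecting more genes, and the share of all genes with a higher median there was not computed. The neuron marker Snap25 went the other way, at a median of 1.29 CPM, against 32.6 CPM elsewhere. All 12 microglia markers were detected on both sides, at 4827 to 10384 CPM in the broad libraries, against 6663 to 13067 CPM elsewhere in sum, with 9 of the 12 at a lower median in the broad libraries. The microglial gene Fcrls was the 1 whose ranges did not overlap, at 291 to 584 CPM, against 1398 to 3337.9 CPM elsewhere. Csf1r, among the 3 with a higher median in the broad libraries, had 1718 CPM, against 519 CPM elsewhere. The neuron marker Rbfox3 did not overlap, at 3.24 to 10.7 CPM there, against 0 to 2.85 CPM. Map2 (3.24 to 12.8, against 0 to 2.31 CPM) and Pdgfrb (4.77 to 11.5, against 0 to 3.42 CPM) were likewise higher. Slc1a3 and Cnp were lower without overlap, and Snap25 overlapped. Slc1a3, Cnp, Snap25, Fcrls, Csf1r, Rbfox3, Map2 and Pdgfrb were named after their values were seen. The part of cell make-up, depth or satellite-like counts in this split was not tested.

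**Figure D3:**
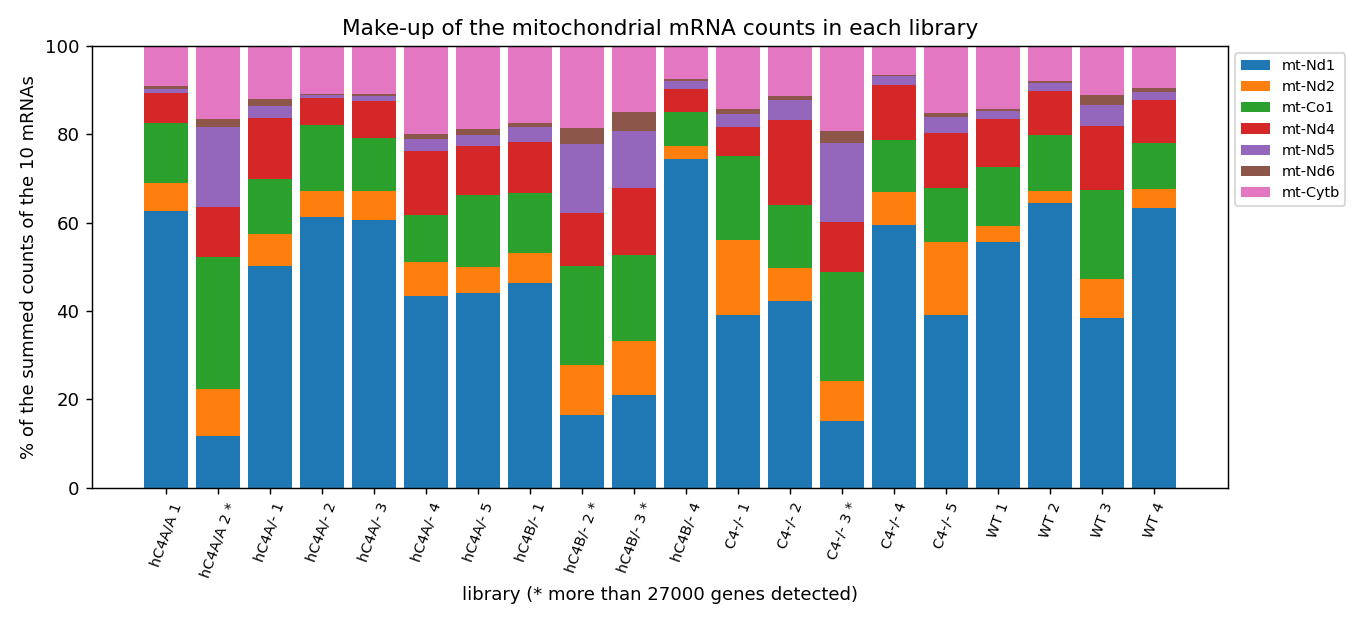
Percentage of the summed counts of the 10 mRNAs taken by each of the 7 counted members, in each library (asterisks mark the broad libraries; mt-Co2, mt-Co3 and mt-Atp6 are too low to show). mt-Nd1 takes 11.8% to 21% of these counts in a broad library and 38.3% to 74.5% in the others, and mt-Nd5 12.8% to 18.2% and 0.664% to 4.72%.

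The comparisons ask whether mitochondrial mRNAs differ between microglia of the 5 genotypes. Of the 12680 genes that passed a filter on low counts, 7 were members, and mt-Co2, mt-Co3 and mt-Atp6 were not tested. In edgeR's quasi-likelihood test for any difference among the 5 genotypes, 0 of the 7 passed at an adjusted p under 0.05, where 15 of all genes tested (0.118%) did, and 0 of the 7 had an unadjusted p under 0.05, against 12% of all genes. The smallest adjusted p belonged to mt-Nd5 (0.491), followed by mt-Nd2 (0.674), mt-Nd4 (0.921), mt-Nd6 (0.94), mt-Nd1 (0.943), mt-Co1 (0.948) and mt-Cytb (0.999). Over 29 settings of the processing the adjusted p of mt-Nd5 ran from 0.163 to 0.917. Standard errors of the members' log2 fold changes ran from 0.56 to 1.07 over the 9 contrasts.

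mt-Nd1 spread widely within genotypes. Its CPM were 1559.9 and 126 in hC4A/A. They were 566, 881, 829, 535 and 1003 in hC4A/-, 681, 232, 273 and 1147 in hC4B/-, and 1053, 308, 191, 1348 and 905 in C4-/- libraries. WT libraries had 1329.9, 1319, 905 and 1308 CPM of mt-Nd1. The 4 lowest values were those of the broad libraries, the range of every genotype overlapped that of WT, and in hC4A/- only replicate 5, at 1003, lay above the lowest WT library. Group means were 843 ± 1014 in hC4A/A, 763 ± 204 in hC4A/-, 583 ± 427 in hC4B/-, 761 ± 495 in C4-/- and 1215 ± 207 CPM in WT. Against WT the log2 fold changes of mt-Nd1 were -0.53 ± 1.006 for hC4A/A, -0.67 ± 0.76 for hC4A/-, -1.06 ± 0.81 for hC4B/- and -0.68 ± 0.76 for C4-/- (SE), and none passed. Without hC4A/A replicate 1 the first of these was -3.27 (edgeR), on the broad hC4A/A library alone. Without the broad libraries the lone hC4A/A library had 1559.9 CPM of mt-Nd1, above the WT mean. The means were then 914 CPM in hC4B/- (n = 2) and 904 CPM in C4-/- (n = 4), still below that of WT. No hC4A/- or WT library was broad.

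mt-Nd5 encodes a proton-pumping membrane subunit of complex I and had the smallest p of the list. Its CPM were 24.6 and 195 in hC4A/A and 32.1, 9.56, 15.6, 33.6 and 54.8 in hC4A/- libraries. They were 47.7, 224, 167 and 29.0 in hC4B/-, 79.7, 32.3, 225, 46.2 and 80.9 in C4-/-, and 43.2, 35.2, 111 and 36.6 in WT libraries. The 4 values from 167 upward were the broad libraries, and the other 16 lay between 9.56 and 111 CPM, where the lone hC4A/A value of 24.6 was below WT and within the range of hC4A/-, and the other genotypes overlapped WT. No hC4A/- library was broad, and that group had the lowest mean, 29.1 ± 17.7 CPM, against 109.7 ± 120.5 in hC4A/A, 117 ± 94.0 in hC4B/-, 92.8 ± 76.8 in C4-/- and 56.6 ± 36.7 in WT.

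mt-Nd6 had 16.9 and 17.95 CPM in hC4A/A and 15.7, 5.31, 6.79, 14.5 and 32.6 in hC4A/- libraries. It had 13.1, 51.3, 55.8 and 7.24 CPM in hC4B/-, 30.2, 6.47, 33.0, 9.03 and 21.1 in C4-/-, and 9.57, 9.15, 51.5 and 20.1 in WT libraries. Its highest values were in the broad hC4B/- libraries and in WT replicate 3, and every genotype overlapped WT.

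**Figure D4:**
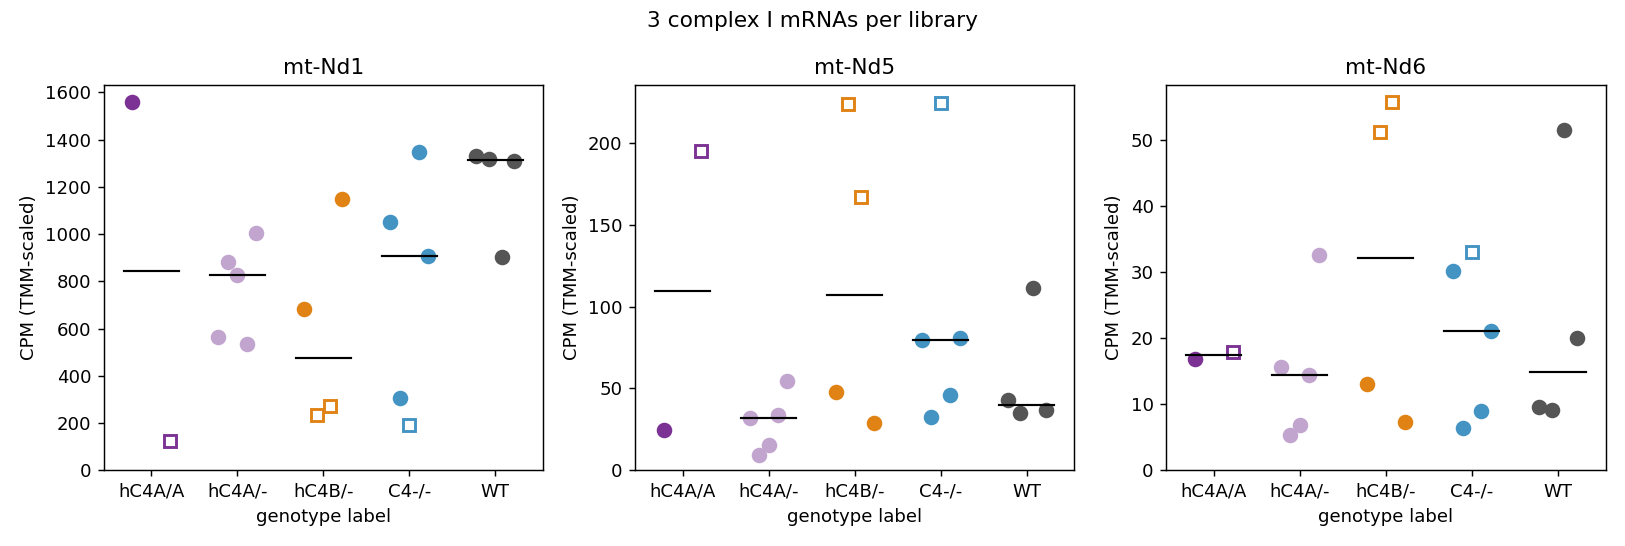
CPM (TMM-scaled) of mt-Nd1, mt-Nd5 and mt-Nd6 in each library by genotype label, each on its own axis. Open squares mark the 4 broad libraries and bars the group medians; the broad libraries hold the 4 lowest values of mt-Nd1 (126 to 273 CPM) and the 4 highest of mt-Nd5 (167 to 225 CPM).

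The other members are given by their means ± SD. mt-Nd2 averaged 136 ± 32.1 CPM in hC4A/A, 97.1 ± 20.5 in hC4A/-, 116 ± 56.2 in hC4B/-, 234 ± 173 in C4-/- and 109.5 ± 67.8 in WT libraries. The C4-/- libraries ranged from 53.6 to 453 CPM and covered the whole WT range of 54.2 to 208. mt-Nd4 averaged 145 ± 36.3, 157 ± 64.4, 155 ± 52.1, 206 ± 73.1 and 252 ± 66.5 CPM in hC4A/A, hC4A/-, hC4B/-, C4-/- and WT. On this TMM scale all hC4A/A (119 to 171) and hC4B/- (78.9 to 198) libraries lay below the lowest WT library of mt-Nd4 at 200.1 CPM, without passing the test. The gap to hC4B/- was narrow and the groups were small. The share of all genes that separate in this way was not computed. In the same genotype order mt-Co1 averaged 329 ± 12.6, 204 ± 98.3, 222 ± 83.9, 295 ± 146 and 318 ± 114 CPM. For mt-Cytb the means in that order were 201 ± 33.6, 221 ± 120.6, 206 ± 69.9, 240.3 ± 128 and 240.02 ± 78.6 CPM, the closest set of means among the counted members.

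Against WT, none of the 7 members passed in any of the 4 contrasts, by adjusted or unadjusted p. Adjusted calls were 0% of all genes in each of the 9 contrasts by edgeR. In the contrast of hC4A/A with WT, 8.41% of all genes had an unadjusted p under 0.05, and mt-Nd4 had the smallest p of the members (log2 fold change -0.80 ± 0.79, adjusted p = 0.801), ranging over settings of the processing from -1.09 without a filter on low counts to -0.52 with RLE scaling. The hC4A/- contrast had 7.51% of genes, with mt-Nd5 first (-0.95 ± 0.75, adjusted p = 0.944), which was -0.39 without WT replicate 3. That of hC4B/- had 13.1%, with mt-Nd5 first (1.05 ± 0.80, adjusted p = 0.542), and the value turned to -0.34 without the broad libraries and was 1.61 without WT replicate 3. For C4-/- the share was 8.53%, with mt-Nd2 first (1.10 ± 0.67, adjusted p = 0.647), which was 0.59 without C4-/- replicate 1 and 1.61 without WT replicate 3. These 4 contrasts share the WT libraries. The 7 neutrophil markers summed to 46.2 to 70.2 CPM in hC4A/A, 0.531 to 113 in hC4A/-, 0 to 173 in hC4B/-, 0 to 144 in C4-/- and 100.4 to 1339.9 in WT libraries, and their part in these contrasts was not tested.

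All 7 members lay below 0 in hC4A/- against WT, with a median log2 fold change of -0.64, beside -0.05 over all genes. In hC4A/A, hC4B/- and C4-/- against WT, 4 of the 7 lay below 0, with medians of -0.26, -0.22 and -0.11, beside 0.18, 0.18 and 0.33 over all genes. Scaling by RLE moved the all-gene medians of hC4A/A and hC4B/- to 0.48 and 0.53 and the members' medians to 0.05 and 0.16, with 2 and 3 of the 7 below 0. For C4-/- the RLE medians were 0.39 over all genes and 0.02 over members, with 3 below 0, and for hC4A/- they were -0.03 and -0.65, with 7 below 0. The hC4A/- median is a description of correlated members, none of which passed by itself.

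Contrasts among the other genotypes turned on mt-Nd5, which had an unadjusted p under 0.05 in 3 of the 63 tests of members. In hC4A/- against C4-/- its log2 fold change was -1.67 ± 0.72 (edgeR, adjusted p = 0.444), beside 10.7% of all genes at that level. It was -0.81 without C4-/- replicate 3, the broad library of that contrast, where the adjusted p was 0.858. In hC4A/- against hC4B/- it was -1.996 ± 0.76 (edgeR, adjusted p = 0.237), beside 16.7% of all genes, and -0.54 without the broad libraries. In hC4A/A against hC4A/- it was 1.90 ± 0.88 (edgeR, adjusted p = 0.423), beside 11.5% of all genes, and -0.26 without the broad libraries. These 3 contrasts share the hC4A/- libraries. In each contrast 1 of 7 members was at that level, and 0 of 7 passed after adjustment.

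In hC4B/- against C4-/-, where 4.52% of all genes had an unadjusted p under 0.05, and hC4A/A against C4-/-, where 2.17% did, no member was at that level. mt-Nd2 had the smallest p in both, with log2 fold changes of -1.01 ± 0.67 (edgeR, adjusted p = 0.989) and -0.79 ± 0.85 (adjusted p = 1). The first ranged from -1.52 without the broad libraries to -0.47 without hC4B/- replicate 4, and the second from -1.04 without C4-/- replicate 2 to -0.40 without C4-/- replicate 1.

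**Figure D5:**
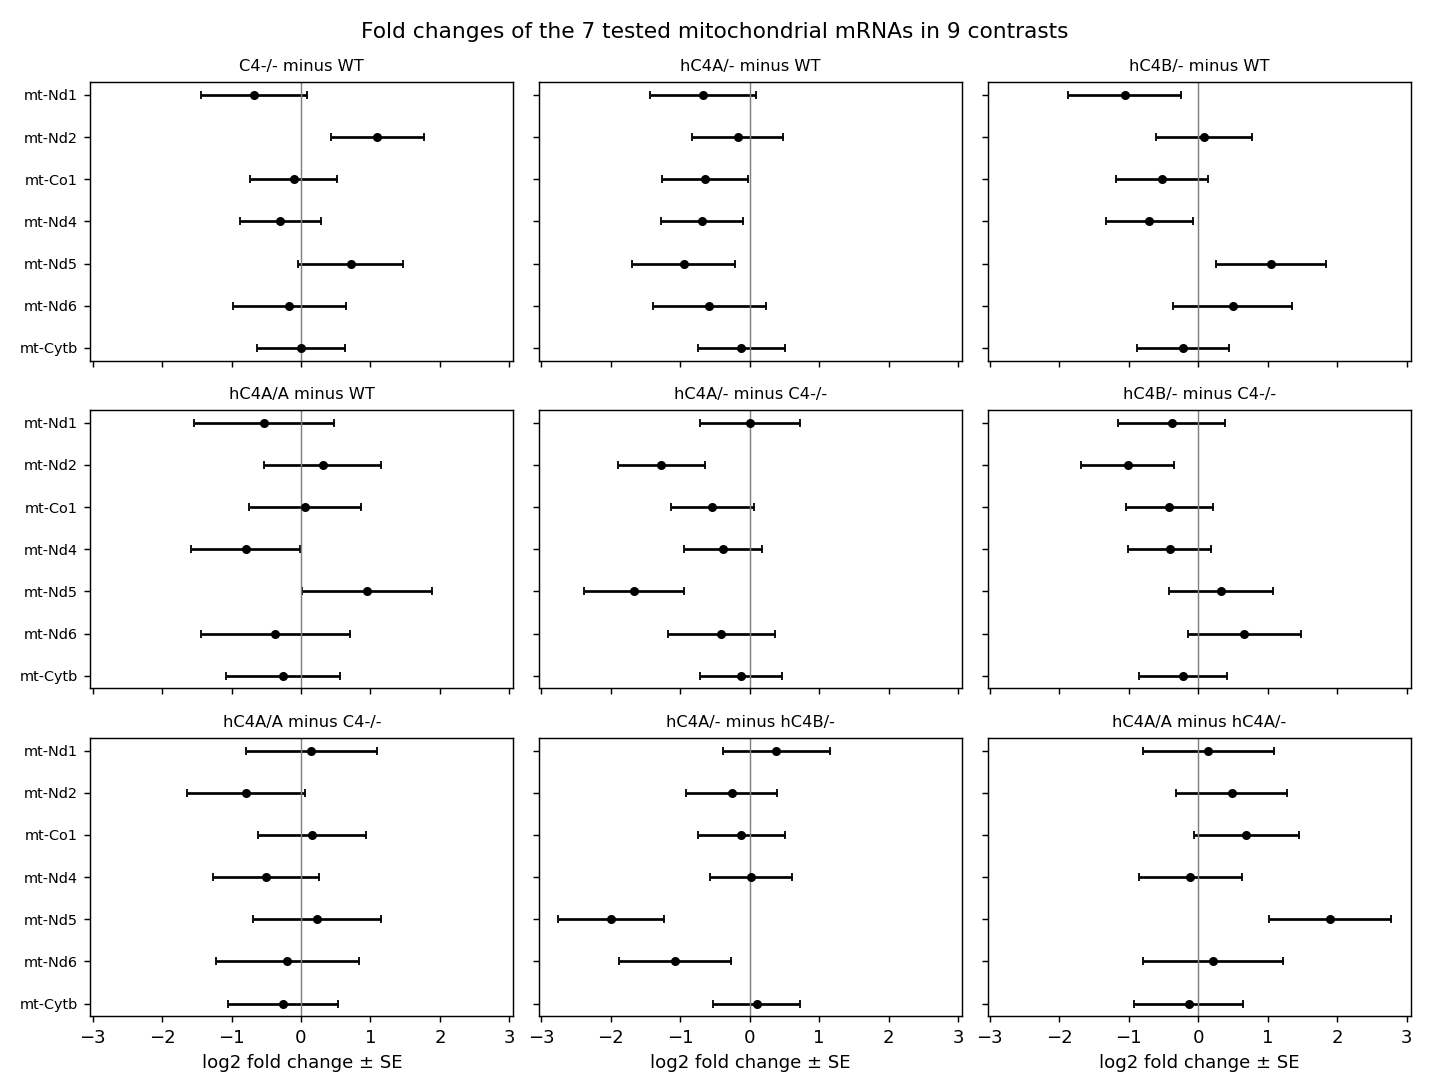
Log2 fold changes ± SE of the 7 tested mRNAs (rows) in the 9 contrasts (panels), from 1 edgeR model over 20 libraries; positive is higher in the first-named genotype. The farthest points from 0 are those of mt-Nd5, at -1.996 in hC4A/- minus hC4B/- and 1.90 in hC4A/A minus hC4A/-, and no member passed at an adjusted p under 0.05.

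Members varied together in part. Over the 16 other libraries Pearson's r of log2 CPM was above 0 in all 21 pairs of counted members, with a median of 0.61 and a range of 0.08 to 0.78, and over all 20 libraries it was above 0 in 19 pairs, with a range of -0.64 to 0.80. The members share their library and its scaling, so these are descriptions. The 5 nuclear genes most like the summed members over 20 libraries were Ly6e (r = 0.79), a GPI-anchored surface protein, Cdc42 (0.78), a small GTPase of the actin cytoskeleton, Firre (0.78), a long noncoding RNA, Mpp5 (0.77), a cell polarity scaffold, and Lap3 (0.77), a leucine aminopeptidase. Their Spearman rho was 0.76 to 0.78. Without the broad libraries the same 5 had r of 0.76, 0.79, 0.83, 0.73 and 0.75 over 16 libraries. The 5 were picked as the highest of all tested nuclear genes in these same libraries, so rho and these r are no independent check. Of the members, mt-Nd5 and mt-Nd6 had r of -0.04 and 0.21 with the sum over 20 libraries, and 0.49 and 0.55 without the broad libraries.

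Nuclear genes that serve the mitochondrial genome were examined as lists. Of 39 genes for synthesis, processing and turnover of mitochondrial RNA, 28 were tested and 0 passed in either direction in any comparison. Fastkd3, an RNA-binding protein that acts on mitochondrial mRNAs, had the smallest p for any difference (edgeR, adjusted p = 0.369). Of 15 regulators of mitochondrial biogenesis, 11 were tested and 0 passed, with Prkaa1, a catalytic subunit of the energy sensor AMPK, at the smallest p (adjusted p = 0.392, edgeR). All 39 and 15 genes were found in the annotation.

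Nuclear subunits of the same 4 complexes did not pass either. Of 48 listed, 46 were tested: 15 of complex I, 9 of complex III, 10 of complex IV and 12 of complex V. None had an unadjusted p under 0.05 in the test for any difference, and the genes of smallest p were Ndufs1 for complex I (edgeR, adjusted p = 0.496), Uqcrfs1 for complex III (0.745), Cox7c for complex IV (0.776) and Atp5l for complex V (0.465). In hC4A/A, 11 of the 46 lay above 0 against WT, 5 against C4-/- and 4 against hC4A/-, with 1 of 2 hC4A/A libraries broad, where 54.6%, 49.1% and 54.3% of all genes lay above 0. With RLE scaling the counts above 0 were 13, 6 and 6 of 46, and the shares of all genes 60.8%, 57.1% and 60.5%. In hC4A/- against WT, 35 of the 46 nuclear subunits lay above 0, beside 47.7% of all genes, while all 7 tested mitochondrial mRNAs lay below it. With RLE scaling these were 38 of 46 and 48.4%. The summed complex I subunits were 104.9 to 534 CPM in the broad libraries, against 261 to 940 CPM elsewhere.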

How the data were processed

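Per the labels' protocols, RNA of 1000 sorted microglia per mouse was copied by template switching, amplified and prepared with a Nextera kit. The deposited files hold raw counts per gene in STAR's layout, with a column that ignores strand, used here, and 2 stranded columns. STAR, edgeR and GRCm38 are named in the submitters' processing notes, with no version or annotation. The summary lines at the head of each file (such as multimapping reads) entered neither sums nor tests. Symbols came from GENCODE M21, which matched 54809 of 54838 genes. The deposited whole-series matrix was not used here.

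The 10 members, the gene lists, the tests and the satellite-like list were chosen with earlier results of these data known. Genes were filtered with filterByExpr by genotype (12680 kept) and scaled by TMM. All 20 libraries entered 1 quasi-likelihood model (edgeR 4.0.16, R 4.3.3, robust) with a coefficient per genotype and no covariate, leaving 15 residual degrees of freedom, and the common dispersion was 1.07. Benjamini-Hochberg adjustment ran over all genes tested, with a threshold of 0.05. SE is the fold change divided by the root of F. CPM and CPM per kb were computed here, the second from annotated transcript length, and correlations used log2 CPM with a prior count of 2. Copies were sought in annotated transcripts with blastn 2.17.0 and by exact windows of 50 bases. The model was run on simulated data, but the recovery of known changes is not given here, so no detectable fold change is stated. DESeq2 1.42.0, voom (limma 3.58.1), other scalings, no filter and left-out libraries were alternatives.

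Depth was 855099 to 2735181 counts per library, which set the Wilson intervals of the summed share to at most 0.00813 percentage points on either side. Chi-square per degree of freedom was 26.3 to 142 over the 33 pairs of libraries of the same genotype. It was 4.14 to 214 over the 157 pairs across genotypes, so the closest pair carried different genotype labels. Each value was above sampling noise, so no pair differed by sampling noise alone. Whether any pair came from the same RNA or the same mouse was not tested. Each library was taken as 1 mouse.

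Named by rule were every member with its test for any difference, the member or members of smallest p in each contrast, library values of the member of smallest p, of the highest and lowest mean CPM and of mt-Nd6, the 5 most similar nuclear genes and the gene of smallest p in each list.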

Additional observations from a re-analysis of the deposited data

Results flagged for a closer look

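Values far from the rest of their genotype were sought for the 10 mRNAs, their sum and their share with Dixon's test, in 48 groups of 4 or 5 libraries. For continuous values chance alone flags about 1 in 20 groups, and 8 values stood apart. The groups share libraries and some hold mostly 0, so these 8 cannot be weighed against that rate. WT replicate 3 had 905 CPM of mt-Nd1, where the other WT libraries had 1308 to 1329.9, and 111 CPM of mt-Nd5, where they had 35.2 to 43.2. C4-/- replicate 3, a broad library, had 225 CPM of mt-Nd5, where the other C4-/- libraries had 32.3 to 80.9. hC4A/- replicate 5, the deepest library, had 133 CPM of mt-Nd2, where the others of its genotype had 81.9 to 93.7, and 2272 CPM of the summed members, where they had 1127 to 1439.5. That library also had 0.673 CPM of mt-Atp6, WT replicate 4 had 0.803 CPM of mt-Co2 and C4-/- replicate 4 had 1.06 CPM of mt-Co2, where the rest of each genotype had 0. Each of these last 3 values is 2 reads, and a lone value above 0 in a group of 0 is always flagged.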

How the results depend on the processing

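No member had an adjusted p under 0.05 for any difference in 29 settings, and over the 63 tests of 7 members in 9 contrasts, in the same 29 settings, the lowest was 0.0669 (mt-Nd5, hC4A/- minus hC4B/-, DESeq2). Counts over all genes moved more. For any difference, 15 genes became 24 with RLE factors, 38 without satellite-like genes, 697 without a filter, 71 with DESeq2, 0 with voom and 2 without the broad libraries. Leaving out each library in turn gave 0 to 34: 0 without WT replicate 1, C4-/- replicate 1 or hC4B/- replicate 3, 8 without WT replicate 4, 30 without hC4A/A replicate 2 and 34 without hC4B/- replicate 4. Replicate numbers did not pair the libraries (median correlation of deviations 0.0083 over 33 same-numbered pairs, 5 of them over 0.1), and with the replicate number as a block 0 genes passed and none of the 9 fold changes named for the contrasts changed sign.

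Against WT the 0 calls of each contrast became 24 (C4-/-), 39 (hC4A/-), 55 (hC4B/-) and 2 (hC4A/A) with DESeq2 and 26, 65, 28 and 3 without a filter. hC4A/- minus C4-/- gave 15 and 53, hC4B/- minus C4-/- 3 and 16, and hC4A/- minus hC4B/- 93 and 36. hC4A/A minus hC4A/- gave 1 with DESeq2. With voom, hC4A/- minus WT gave 1, hC4A/- minus C4-/- 1 and hC4A/A minus hC4A/- 6, and without the broad libraries hC4A/- minus WT gave 1. With a library left out, hC4B/- minus WT gave 0 to 2 (2 without either hC4A/A library, 1 without hC4B/- replicate 4), hC4A/A minus WT 0 to 1 (1 without hC4A/A replicate 1) and hC4A/- minus hC4B/- 0 to 5 (5 without hC4B/- replicate 4). Which genes these are was not followed.

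The log2 fold change of mt-Nd5 turned to -0.34 in hC4B/- minus WT and to -0.26 in hC4A/A minus hC4A/- without the broad libraries. In the second it ran from -0.22 (without hC4A/A replicate 2) to 2.81 (without hC4A/A replicate 1) with a library left out. A contrast with a lone hC4A/A library assumes that it varies like the other groups. Low counts limit mt-Co2, mt-Co3 and mt-Atp6, which held 54 counts in all. The part of depth or of shared sequence in this was not tested.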
